A study of Mus musculus with 23 samples.

Results

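The genes of oxidative phosphorylation were followed in hippocampal RNA of female mice with and without Ins2, a gene for 1 of the insulins of the mouse. Members were the genes whose symbols begin as those of the respiratory complexes do: mt-Nd, mt-Co, mt-Atp and mt-Cytb for the mitochondrial genome, and Nduf, Sdha to Sdhd, Uqcr, Cox followed by a digit, and Atp5 for the nucleus. Of 45706 gene identifiers in the count table, 127 carried such a symbol, 12 of these were annotated pseudogenes and were left out, and 115 members remained. Of these, 13 are encoded by mitochondrial DNA and 102 by the nucleus. By complex, 51 belong to complex I, 4 to complex II, 9 to complex III, 32 to complex IV and 19 to complex V, and by role the nuclear members are 20 core subunits, 64 accessory subunits and 18 assembly factors. The series compared the hippocampus of female Ins2+/+ mice (WT, 12 libraries) with that of female Ins2-/- mice (KO, 11 libraries), 1 library per sample, and its title names learning and memory as the subject. The labels give no treatment, age, strain or batch, and do not say whether each sample came from its own animal, so p-values measure the spread between these samples.

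Oxidative phosphorylation turns the energy of food into ATP at the inner mitochondrial membrane. Complexes I and II take electrons from NADH and succinate, complex III passes them to cytochrome c, complex IV hands them to oxygen, and complex V uses the proton gradient built on the way to make ATP. Every complex except complex II is assembled from subunits of both genomes, and neurons depend on it heavily to restore ion gradients after firing.

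Some members share sequence with another counted gene, which limits what their counts mean, and the stretches that decide this are shown first. Members of the mitochondrial genome have near-identical copies of mitochondrial DNA on chromosome 1, where 7 pseudogenes lie at chr1:24611535-24616197 (GRCm38, GENCODE M21). The mt-Nd3 transcript and its copy Gm28438 differ at 1 of 345 aligned bases, T3C counted from the first base of mt-Nd3, so a read that does not cover that base fits both. The windows lie at chrM:9459-9481 on the plus strand and chr1:24613097-24613119 on the minus strand, and the capital marks the base that differs.
mt-Nd3: atTaacctgtacactgttatctt
Gm28438: atCaacctgtacactgttatctt

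The messages of mt-Atp8 and mt-Atp6 overlap by 43 bases, shown here because reads from that stretch can count for either member. The windows are chrM:7907-7969 and chrM:7927-7989, both on the plus strand, with the shared bases in capitals.
mt-Atp8: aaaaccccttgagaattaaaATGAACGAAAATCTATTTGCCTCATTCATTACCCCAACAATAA
mt-Atp6: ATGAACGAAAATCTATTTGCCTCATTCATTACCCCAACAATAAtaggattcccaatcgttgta

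Cox16, the member with the smallest p-value, shares its downstream exons with Gm20498, a protein-coding locus on the same strand. Reads from the shared exons do not tell them apart, while reads from the upstream part of each transcript do, and the 60 bases around the junction where both enter the shared coding exon show this. In the mature transcripts the 30 bases in lower case come from the exon of each gene before the junction, and the 30 in capitals are the shared exon. Both stretches lie on the minus strand of chromosome 12 and are joined over an intron, within chr12:81480973-81484926 for Cox16 and chr12:81480973-81504573 for Gm20498 (GRCm38, GENCODE M21).
Cox16: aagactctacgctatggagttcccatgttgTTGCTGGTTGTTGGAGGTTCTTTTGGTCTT
Gm20498: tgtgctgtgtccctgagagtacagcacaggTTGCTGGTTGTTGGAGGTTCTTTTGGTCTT

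Promoters of nuclear respiratory genes are known for sites of nuclear respiratory factor 1 (NRF1), of ETS proteins such as GABP, and of YY1. RefSeq start sites (GRCm38.p6) were matched by symbol for 81 of 115 members, with 87 windows, and the 250 bases before each start were searched on both strands for 1 exact word per factor. The NRF1 word GCGCATGC stood in 9 of the 87 windows (10.3%), in 2.26% of all 32851 windows and in 3.94% of the 14134 windows of tested protein-coding genes outside the members. The ETS word CCGGAAG stood in 18 windows (20.7%), against 6.91% of all windows and 11.9% of those of tested protein-coding genes. The YY1 word AAGATGGC stood in 2 windows (2.3%), against 1.56% and 1.76%. In all, 24 members had a match, and Atp5l and Cox6a1 had both the NRF1 and the ETS word, which do not share letters in these windows. A match describes the letters only, and no binding was measured.

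The windows of Cox16, Atp5l and Cox6a1 are printed to show where these words stand, with the matched letters in capitals. They are chr12:81485138-81485387, chr9:44920743-44920992 and chr5:115348959-115349208, each on the minus strand and written from the far end towards the start site.
Cox16 promoter: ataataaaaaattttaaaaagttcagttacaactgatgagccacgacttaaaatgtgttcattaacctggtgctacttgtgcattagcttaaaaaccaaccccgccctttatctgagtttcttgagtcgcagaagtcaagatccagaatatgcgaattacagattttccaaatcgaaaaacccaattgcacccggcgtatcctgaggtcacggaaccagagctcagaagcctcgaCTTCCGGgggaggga
Atp5l promoter: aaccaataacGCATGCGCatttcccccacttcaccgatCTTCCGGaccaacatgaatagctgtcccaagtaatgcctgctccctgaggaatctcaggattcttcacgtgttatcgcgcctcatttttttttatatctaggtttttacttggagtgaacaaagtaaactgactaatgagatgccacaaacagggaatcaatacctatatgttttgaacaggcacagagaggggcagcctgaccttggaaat
Cox6a1 promoter: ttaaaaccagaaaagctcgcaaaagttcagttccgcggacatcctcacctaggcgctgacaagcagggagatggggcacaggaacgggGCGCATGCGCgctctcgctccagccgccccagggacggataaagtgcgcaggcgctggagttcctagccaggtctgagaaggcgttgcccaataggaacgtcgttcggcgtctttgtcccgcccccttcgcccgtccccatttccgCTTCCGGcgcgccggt

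Library totals were 13792274 to 22520798 counts in WT and 14863640 to 22953261 in KO. Ins2 had 26 counts in WT, 18 of them in library 17, and 0 in KO, where 3 counts over the group would be 0.0156 CPM (counts per 1000000 of the library total, scaled by TMM for the members). Library KO 8 stood apart from its tissue label: 11 hypothalamic marker genes summed to 1550 CPM there against 1.3 to 8.6 CPM in the other 22 libraries, and 9 dentate gyrus markers to 154 CPM against 394 to 811 CPM. In WT 14, WT 17, KO 2, KO 6 and KO 12, 12 markers of choroid plexus, the secretory lining of the ventricles, summed to 3221 to 20422 CPM, against 33.5 to 102 CPM in the other 18 libraries. Results are given with all libraries and, where these libraries bear on them, without them. In bulk tissue, fewer cells of a type and less RNA per cell cannot be told apart.

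The genotypes were compared gene by gene to ask whether the loss of Ins2 was accompanied by other levels of respiratory chain transcripts. No member passed the test. Of 112 members that passed the filter on low counts, 0 had a Benjamini-Hochberg adjusted p below 0.05 in edgeR's quasi-likelihood test, against 2 of 15828 tested genes (0.0126%). At an unadjusted p below 0.05 there were 3 members (2.68%), Cox16, mt-Nd6 and Ndufb5, all higher in KO, against 5.74% of all tested genes in either direction and 3.41% higher in KO. DESeq2 had 5 members at an unadjusted p below 0.05 (4.46%), all higher in KO, against 3.84% of all tested genes higher in KO and 6.17% in either direction, and 0 members called. The members not tested were Cox7b2, Cox8b and Cox8c, forms of complex IV subunits with tissue-restricted expression. In each of the 115 members the values of the genotypes overlapped. This describes the members only, since the share over all tested genes is not given here.

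The nuclear members nearly all had fitted log2 fold changes on the same side, by little. Among 99 tested nuclear members, 98 were above 0, with a median of 0.059, while over all tested genes 51.0% were above 0 and the median was 0.003. The 20 nuclear core subunits were all above 0 (median 0.037), as were the 61 tested accessory subunits (0.069), and 17 of 18 assembly factors were (0.055). With the trend of fold change with transcript length taken out, as described further on, 71 of 99 nuclear members were above 0 and the median was 0.024. Leaving out WT 23 gave 93 of 99 and a median of 0.038, and leaving out KO 22 gave 95 of 99 and 0.09. The 13 mitochondrially encoded members had 4 values above and 9 below 0, with a median of -0.029, but without KO library 8 this turned to 8 above and 5 below (median 0.011), and without WT 17 the median was -0.002. None of these values is a call, since the members were not tested as a set and move together between libraries.

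**Figure D1:**
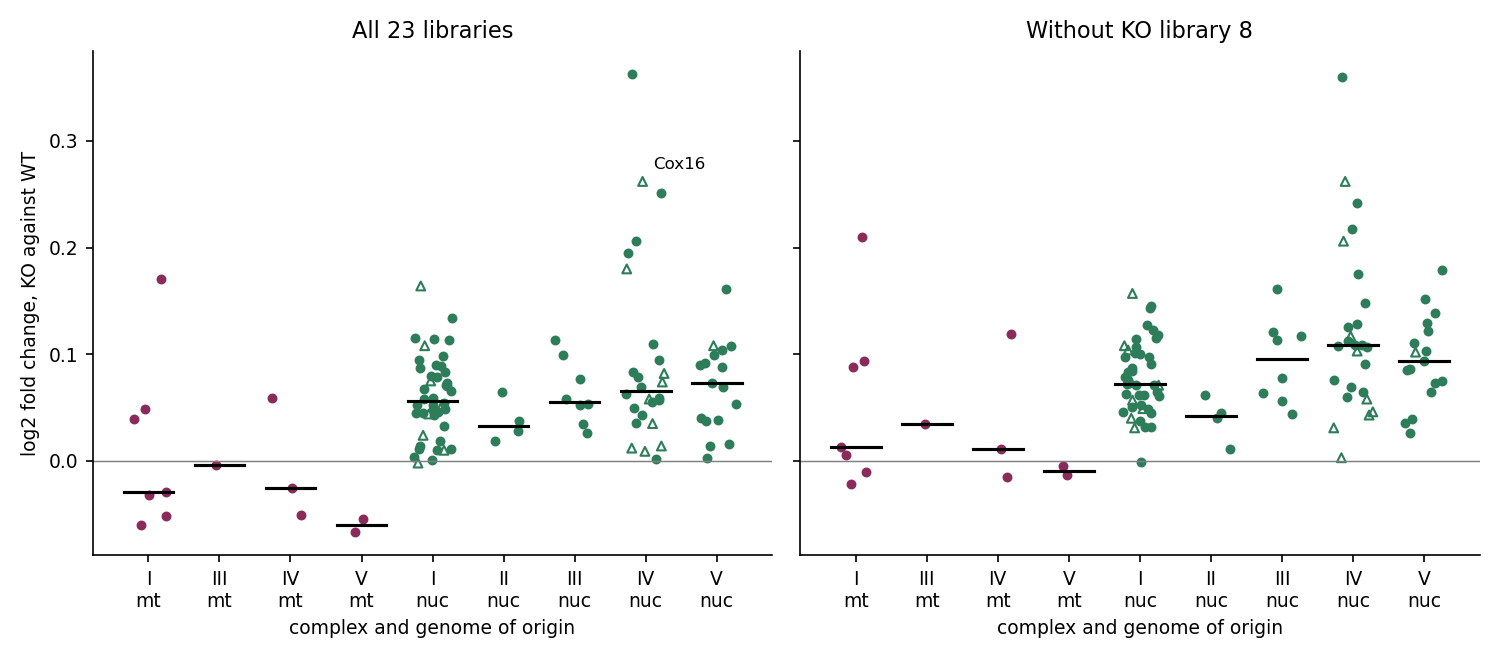
Log2 fold change of KO against WT (vertical axis) for each tested member, by complex and genome of origin (mt, mitochondrial, purple; nuc, nuclear, green; triangles, assembly factors), with the median as a bar, for all 23 libraries and without KO library 8. Nuclear members lie above 0 with 1 exception in each panel, and the mitochondrial medians lie below 0 with all libraries.

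By complex the nuclear medians lay close together. They were 0.056 for complex I (43 of 44 above 0), 0.032 for complex II (4 of 4), 0.055 for complex III (8 of 8), 0.066 for complex IV (26 of 26 tested) and 0.073 for complex V (17 of 17). Without KO library 8 they were 0.073, 0.043, 0.095, 0.109 and 0.094 in the same order. With the transcript length trend taken out they were 0.018, 0.013, 0.033, 0.024 and 0.032. The differences between complexes were not tested.

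The mitochondrial messages include the proton-pumping and oxygen-binding core of the chain and are by far the most abundant members per length. On a scale of counts per kilobase of the principal transcript, summed to 1000000 per library, the WT means ran from 2197 ± 212 for mt-Nd3 to 23739 ± 1399 for mt-Co1 (SD, n = 12), with a median of 7186. The median of the nuclear members on that scale was 186. Among them Atp5b (1220 ± 48.5) and Cox4i1 (1203 ± 103) were highest in complexes V and IV, Uqcrh (502 ± 50.6) in complex III, Ndufb9 (417 ± 42.7) in complex I and Sdha (331 ± 16.4) in complex II. The lowest were Sdhc in complex II (53.7 ± 4.73), Uqcrq in complex III (127 ± 12.8), the assembly factors Ndufaf6 in complex I (10.3 ± 1.4) and Atp5s in complex V (19.6 ± 1.43), and Cox8c in complex IV, with 0 counts in WT. The order at the top depends on the length used: per kilobase of merged exons, an alternative added after seeing the data, the highest were Uqcr10 (396) in complex III, Cox8a (1269) in complex IV and Atp5a1 (796) in complex V, while Ndufb9 and Sdha stayed highest and the lowest member of each complex was the same. The 13 messages held 4.44% ± 0.255 of counts in WT (SD, n = 12) and 4.47% ± 0.361 in KO (SD, n = 11). These shares differed by less than either spread.

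Subunits of complex I encoded by mitochondrial DNA form its membrane arm, where protons are pumped. mt-Nd1 had 3587, 3980 and 4653 CPM as the lowest, median and highest WT value and 3079, 3904 and 4554 CPM in KO (log2 fold change -0.03, SE 0.062). mt-Nd2 had 2713, 2975 and 3694 CPM in WT and 2168, 2998 and 3458 CPM in KO (-0.05, SE 0.0679). mt-Nd4 had 4717, 5576 and 6610 CPM in WT and 4064, 5562 and 6169 CPM in KO (-0.03, SE 0.0658). In all 3 of these messages the lowest KO value was that of library 8, and the medians of the genotypes differed by less than the spread. For mt-Nd5 the values were 2326, 2729 and 3540 CPM in WT and 2171, 2910 and 3237 CPM in KO (0.05, SE 0.0675). mt-Nd3 had 259, 312 and 370 CPM in WT and 209, 324 and 411 CPM in KO (0.04, SE 0.0902), and mt-Nd4l had 235, 278 and 317 CPM in WT and 203, 263 and 314 CPM in KO (-0.06, SE 0.0666). Both are short messages with near-identical chromosome 1 copies. The value of mt-Nd3 rested on the libraries used, at 0.09 without KO library 8 (p = 0.229), 0.15 without the 5 choroid plexus rich libraries (p = 0.134) and 0.23 without all 6 (edgeR p = 0.00206, adjusted p = 0.506). In that last fit its p-value was below that of mt-Nd6 (0.24, p = 0.0048).

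With all libraries, mt-Nd6 was the mitochondrial member with the smallest p-value. It encodes a membrane subunit of complex I, and it is the only messenger RNA read from the minus strand of mitochondrial DNA (chrM:13552-14070). WT libraries had 531, 690 and 901 CPM as lowest, median and highest, and KO libraries 607, 774 and 954 CPM. The means were 705 ± 90.3 CPM (SD, n = 12) and 793 ± 102 CPM (SD, n = 11), and 10 of 11 KO libraries were above the WT median. The log2 fold change was 0.17 (SE 0.0772, 95% interval 0.01 to 0.33, edgeR p = 0.0368, adjusted p = 0.781), and 0.21 without KO library 8 (p = 0.00736). Leaving out 1 library at a time gave 0.14 to 0.21, with an unadjusted p of 0.05 or above in 10 of 23 fits. WT 17, a choroid plexus rich library, was the highest WT value, and the genotypes overlapped over most of their range. It overlaps mt-Nd5 on the opposite strand by 14 bases, and the use of strand in counting is not given in the sources used here.

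In complex III, mt-Cytb encodes cytochrome b, which holds both quinone sites. It had 5011, 5790 and 6517 CPM in WT and 4353, 5641 and 6481 CPM in KO (log2 fold change -0.004, SE 0.0605). In complex IV, mt-Co1 carries the centre where oxygen is reduced, mt-Co2 receives electrons from cytochrome c, and mt-Co3 stabilises the pair. mt-Co1 had 13333, 14692 and 16972 CPM in WT and 11476, 14959 and 16612 CPM in KO (-0.03, SE 0.059, 95% interval -0.15 to 0.1). mt-Co2 had 3363, 3825 and 5043 CPM in WT and 2553, 4245 and 5422 CPM in KO (0.06, SE 0.0965). mt-Co3 had 1282, 1489 and 1907 CPM in WT and 1176, 1379 and 1780 CPM in KO (-0.05, SE 0.0802). The groups overlapped nearly fully in all 3.

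In complex V, mt-Atp6 forms the proton channel of the membrane part and mt-Atp8 belongs to its stator. mt-Atp6 had 947, 1302 and 1533 CPM in WT and 865, 1237 and 1567 CPM in KO (log2 fold change -0.05, SE 0.0896). mt-Atp8 had 606, 683 and 790 CPM in WT and 427, 646 and 882 CPM in KO (-0.07, SE 0.0823), the most negative value of any member in the deposited counts. With mt-Nd4l these were the 3 members with the most negative fold changes, and none had an unadjusted p below 0.05. For the 13 messages the 95% intervals of the log2 fold change lay between -0.24 (mt-Atp6) and 0.33 (mt-Nd6), so each excluded a change of 0.5 in either direction on the log2 scale.

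Library KO 8 was the lowest of 23 libraries for 12 of the 13 mitochondrial messages, mt-Nd6 being the exception, at a median of 74.2% of the mean of the others. It was the lowest for 28 of 102 nuclear members, at a median of 89.4%, and the highest for 4. Sdha was one of these 4, at 462 CPM against 368 to 420 CPM elsewhere, and Cox6a1 stood at the other end among well-expressed members, at 86.7 CPM against 134 to 206 CPM. Without it the nuclear members had 98 of 99 fold changes above 0, with a median of 0.084. Then 9 members (8.04%) had an unadjusted p below 0.05, all higher in KO, and 0 were called. The shares of all tested genes were 2.18% higher in KO and 4.11% in either direction. The 9 were mt-Nd6, Cox16, Cox10, Uqcr10, Cox6b1, Cox7b, Atp5l, Atp5o and Atp5d. The part of its hypothalamic RNA in these values was not tested.

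**Figure D2:**
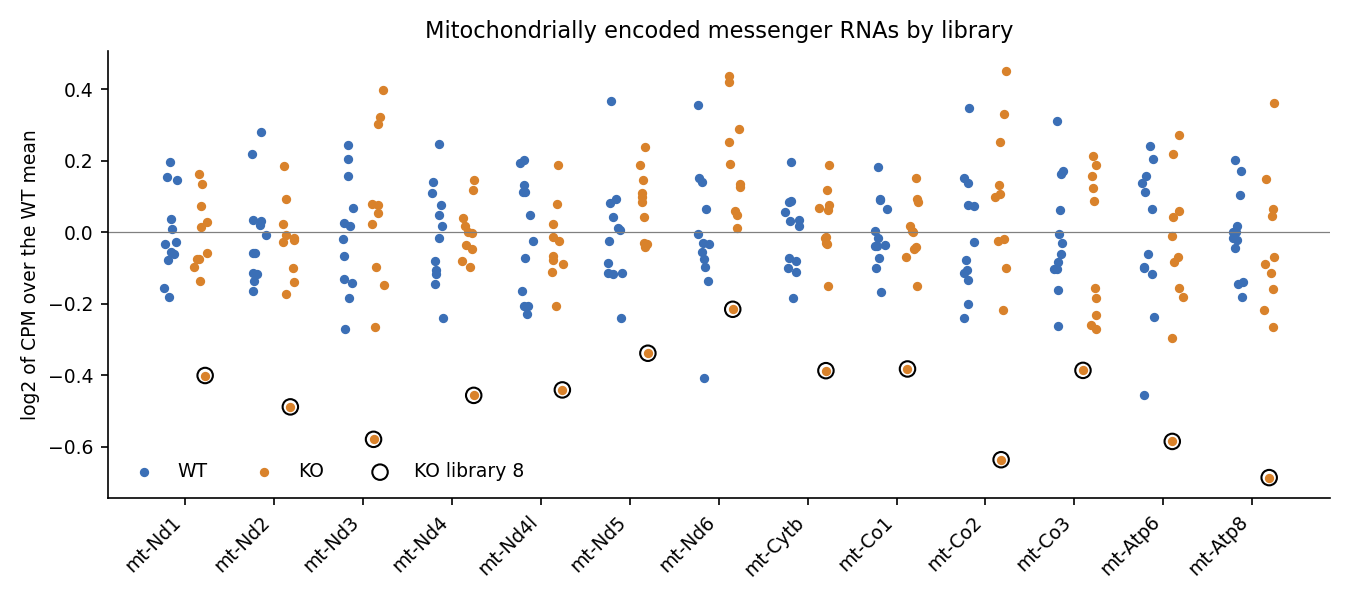
Log2 of the CPM of each mitochondrially encoded message over its WT mean (vertical axis), 1 point per library, WT in blue and KO in orange, with KO library 8 circled. KO library 8 is the lowest point of 12 of the 13 messages, and without it the ranges of the genotypes still overlap in each.

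The share of counts assigned to the chromosome 1 copies differed between the mitochondrial messages. The 7 copies held 1.5% of all counts beside 4.47% for the 13 messages. Of the summed counts of message and copy, the copy had 80.45% for mt-Atp6, 77.17% for mt-Co3, 59.98% for mt-Nd3, 43.26% for mt-Nd4l, 42.93% for mt-Co2, 5.04% for mt-Co1 and 1.92% for mt-Nd4. How reads that fit both were divided is not given in the sources used here, so the levels per length given above for these members are uncertain. Summed with copies, the WT means per length were 25389 for mt-Co2 and 24921 for mt-Co1. For mt-Nd3 the sum was 5532, above mt-Nd6 at 3324. So neither mt-Co1 as the highest nor mt-Nd3 as the lowest message held with copies summed. When each message was summed with its copy, an alternative added after seeing the data, the log2 fold change of mt-Atp6 moved from -0.05 to 0.00, that of mt-Co3 from -0.05 to 0.04, and that of mt-Co2 from 0.06 to 0.01. That of mt-Nd4l moved away from 0, from -0.06 to -0.09. None had an unadjusted p below 0.05 either way except mt-Nd6, which has no counted copy.

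The nuclear core subunits include those with the redox centres and catalytic sites, and also stalk and membrane ring subunits of complex V. Their median coefficient of variation between WT libraries was 8.41%, close to the 8.55% of assembly factors. It was 10.8% for accessory subunits, 11.1% for the mitochondrial messages and 12.2% over all tested genes. In complex I, Ndufv1 holds the NADH site and had 107, 127 and 146 CPM as lowest, median and highest in WT and 114, 135 and 143 CPM in KO (log2 fold change 0.04, SE 0.0503). Ndufs1, which carries iron-sulfur clusters, had 128, 144 and 153 CPM in WT and 124, 147 and 161 CPM in KO (0.02, SE 0.0397). In complex II, Sdha, the succinate-oxidising flavoprotein, had 371, 390 and 420 CPM in WT and 368, 395 and 462 CPM in KO (0.03, SE 0.0376), its highest value being that of KO 8. The iron-sulfur subunit Sdhb had 77.5, 84.6 and 98.6 CPM in WT and 74.6, 87.1 and 99.2 CPM in KO (0.04, SE 0.051). The membrane anchors Sdhc and Sdhd had log2 fold changes of 0.07 (SE 0.0618) and 0.02 (SE 0.0488).

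In complex III, the Rieske iron-sulfur protein Uqcrfs1 had 84.2, 91.4 and 109 CPM in WT and 80.0, 94.1 and 111 CPM in KO (log2 fold change 0.03, SE 0.0565). Uqcrc1, a structural core protein counted here with the accessory subunits, had 155, 176 and 203 CPM in WT and 161, 187 and 200 CPM in KO (0.05, SE 0.0469). In complex V, Atp5b encodes the catalytic beta subunit and had 896, 936 and 1018 CPM in WT and 835, 977 and 1037 CPM in KO (0.01, SE 0.0425). Its partner Atp5a1, the alpha subunit, had 695, 732 and 795 CPM in WT and 672, 753 and 802 CPM in KO (0.02, SE 0.0374, 95% interval -0.06 to 0.09). Among the 20 core subunits, 19 had a 95% interval within 0.25 of 0 on the log2 scale, and the widest was that of Atp5e, the small epsilon subunit of the central stalk, from -0.19 to 0.29.

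Accessory subunits surround the cores and make up most of the nuclear list. Ndufb5, a membrane arm subunit of complex I at chr3:32736990-32751566 on the plus strand, had 61.5, 72.5 and 85.3 CPM in WT and 64.6, 79.3 and 89.4 CPM in KO. Its log2 fold change was 0.12 (SE 0.0549, 95% interval 0.0 to 0.23, edgeR p = 0.0462, adjusted p = 0.781), with 9 of 11 KO libraries above the WT median. Without KO library 8 it was 0.11 (p = 0.0676), and the unadjusted p was 0.05 or above in 16 of the 23 fits that each left out 1 library. Mrpl47 overlaps 12.33% of its exonic bases on the opposite strand. In complex IV, Cox4i1 and Cox5a, subunits next to the core, had 313, 378 and 430 against 295, 411 and 446 CPM (WT against KO, log2 fold change 0.06, SE 0.0692) and 87.5, 99.6 and 127 against 90.4, 107 and 121 CPM (0.06, SE 0.0682). In both, the genotypes overlapped over nearly all of their range.

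Small subunits of complexes III, IV and V were among those that passed an unadjusted p of 0.05 without KO library 8. Uqcr10, an accessory subunit of complex III, had 53.4, 69.3 and 80.2 CPM in WT and 52.2, 76.9 and 90.4 CPM in KO (log2 fold change 0.11 with all libraries, 0.16 and p = 0.0255 without KO 8). Cox7b had 91.1, 103 and 126 CPM in WT and 88.3, 112 and 139 CPM in KO (0.11, then 0.15 and p = 0.0203). Cox6b1, on the outer face of complex IV, had 111, 132 and 150 CPM in WT and 115, 142 and 161 CPM in KO (0.10, then 0.13 and p = 0.0317). In these 3 subunits the lowest KO value was that of library 8 and the highest that of library 16. Atp5o, which links the stator to the catalytic head of complex V, had 111, 130 and 152 CPM in WT and 124, 142 and 154 CPM in KO (0.10, then 0.12 and p = 0.0278). Atp5l, a membrane subunit, had 91.2, 111 and 132 CPM in WT and 89.8, 118 and 134 CPM in KO (0.10, then 0.14 and p = 0.0301). Atp5d, of the central stalk, had 104, 125 and 142 CPM in WT and 101, 133 and 155 CPM in KO (0.09, then 0.13 and p = 0.0367). WT 23 was the lowest WT library in all 6 of these accessory and stalk subunits.

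Among the 18 assembly factors, which build the complexes without staying in them, Cox16 had the smallest p-value of any member. It helps to bring mt-Co2 into complex IV, and it had been known from earlier results of these data to rank high. It lies at chr12:81359026-81485127 on the minus strand. WT libraries had 10.7, 11.8 and 14 CPM as lowest, median and highest, and KO libraries 11.8, 14.3 and 16.2 CPM. All 11 KO libraries were above the WT median and 6 were above the highest WT value, while 6 of 12 WT libraries lay within the KO range, WT 17 and WT 24 (both 14 CPM) the furthest. The means were 11.9 ± 1.12 CPM (SD, n = 12) and 14.2 ± 1.36 CPM (SD, n = 11), a log2 fold change of 0.26 (SE 0.06, 95% interval 0.14 to 0.39, edgeR p = 0.000206, adjusted p = 0.729). It was 0.26 without KO library 8 as well (p = 0.000347, adjusted p = 0.963), and 0.24 to 0.29 in the 23 fits that each left out 1 library.

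Cox16 counts are tied to those of Gm20498, since 1784 of the 2007 bases of its principal transcript are identical there, beyond the junction printed above. Gm20498 held 47.1% of the summed counts of both. Its means were 11.3 ± 1.06 CPM (WT, SD, n = 12) and 11.9 ± 1.29 CPM (KO, SD, n = 11), a log2 fold change of 0.07 (SE 0.0647, p = 0.267). Summed with it, Cox16 had a log2 fold change of 0.17 (SE 0.0497, edgeR p = 0.00191, adjusted p = 0.78). Synj2bp, the neighbouring gene, had means of 41.8 ± 3.55 CPM (WT, SD, n = 12) and 40.8 ± 2.11 CPM (KO, SD, n = 11), a log2 fold change of -0.04 (SE 0.046). Gm20498 spans chr12:81358860-81532905, past the upstream end of Cox16, and whether it also shares reads with Synj2bp was not examined. Synj2bp is therefore not shown to be an independent comparison. How the deposited counts divide reads between Cox16 and Gm20498 is not given in the sources used here, and its part in the fold change was not tested.

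**Figure D3:**
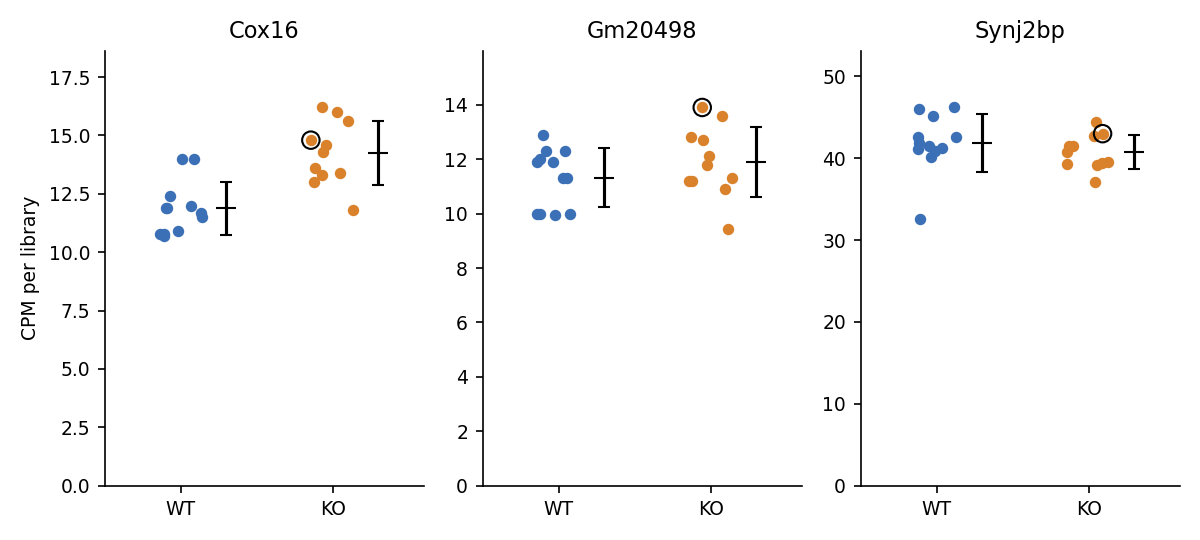
CPM per library (vertical axes, from 0) of Cox16, of Gm20498, which shares its downstream exons, and of the neighbouring gene Synj2bp, in WT (blue, n = 12) and KO (orange, n = 11), with the mean and SD beside the points and KO library 8 circled. For Cox16, 6 KO points lie above the highest WT point, and for the other 2 genes the ranges overlap, with KO 8 and KO 21 above the highest WT point for Gm20498.

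Other assembly factors of complex IV had smaller fold changes. Cox18, which inserts the tail of mt-Co2 into the membrane, had 9.13, 10.6 and 16.3 CPM in WT and 10, 13.1 and 15.7 CPM in KO (log2 fold change 0.18, SE 0.107). Cox20, a chaperone of mt-Co2, was at 0.07 (SE 0.102) and shares 91.05% of its exonic bases with Hnrnpu on the opposite strand. The copper carriers Cox17, Cox19 and Cox11 had 0.06 (SE 0.0557), 0.03 (SE 0.042) and 0.01 (SE 0.0914). The haem synthesis enzymes Cox10 and Cox15 had 0.08 (SE 0.0616) and 0.01 (SE 0.0389), and Cox10 reached p = 0.0477 without KO library 8. Of the complex I factors, Ndufaf6 had the largest value, 0.16 (SE 0.0959), and Ndufaf4 was the only tested nuclear member below 0, at -0.002 (SE 0.0645). Assembly factors were expressed at a median of 26.1 per length in WT, against 188 for core and 222 for accessory subunits on the same scale.

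The fold changes of the nuclear members were smaller for longer transcripts, while 98 of 99 were above 0. Their principal transcripts had a median of 934 bases, against 3107 bases over 14128 tested protein-coding genes. Below 1000 bases, 53 of 53 nuclear members were above 0 (median log2 fold change 0.07), and so were 526 of 681 other protein-coding genes (77.2%, median 0.063). From 1000 to under 2000 bases the medians were 0.049 for 32 members and 0.032 for 2746 others. From 2000 to under 4000 bases they were 0.035 for 11 members and 0.004 for 5827 others, and from 4000 bases on 0.014 for 3 members and -0.025 for 4762 others. Across the 99 nuclear members, length and log2 fold change had a Pearson correlation of -0.3 and a Spearman correlation of -0.36, as a description over genes that share the same libraries. Accessory subunits, with a median of 704 bases, were shorter than core subunits (1386) and assembly factors (1469).

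Short transcripts also moved together between single libraries, in both genotypes. Taking each gene's log2 deviation from its mean over all libraries, the median over nuclear members below 1000 bases was -0.28 in WT 23, -0.26 in KO 22 and 0.23 in KO 16, and that over other protein-coding genes of this length was -0.21, -0.22 and 0.13. KO 8 departed from this, at -0.13 for the members and 0.03 for the others. When the length trend of the genes outside the list was taken out as an offset, an alternative added after seeing the data, the nuclear members had the lower count and median given above. The mitochondrial members then had a median of -0.063, with 2 of 13 above 0, and Cox16 kept a log2 fold change of 0.25 (edgeR p = 0.000395, adjusted p = 0.732). With this offset 1 member had an unadjusted p below 0.05 (0.893%, against 3.49% of tested genes higher in KO and 5.76% either way). With the offset and without KO library 8 there were 8 (7.14%), all higher in KO, against 1.9% and, in either direction, 4.01%.

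**Figure D4:**
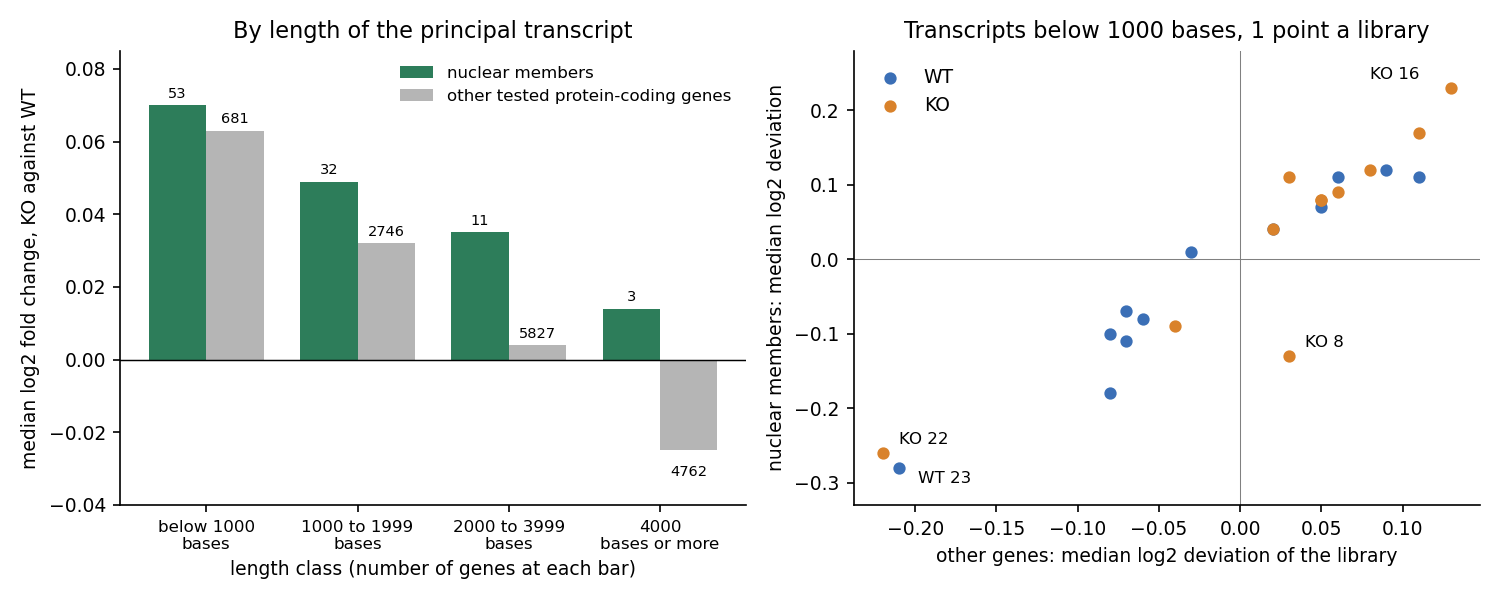
Left, median log2 fold change of KO against WT (vertical axis) by length of the principal transcript, for nuclear members (green) and other tested protein-coding genes (grey), with the number of genes at each bar. Right, median log2 deviation of each library over transcripts below 1000 bases, other genes (horizontal axis) against nuclear members (vertical axis), WT in blue and KO in orange. Medians fall from the shortest to the longest class in both gene groups, and WT 23 and KO 22 lie together at the low end.

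The number of members at an unadjusted p below 0.05 went up in some fits that left out or gave less weight to libraries and down in others, such as those without WT 14 (2 members), KO 12 (1) or WT 23 (1), against 3 with all libraries. limma voom with quality weights gave KO 8 a weight of 0.1, the lowest of all libraries. It had 51 of 112 members below 0.05 (45.5%), all higher in KO. Of all tested genes, 7.54% were below 0.05 and higher in KO, and 17.5% in either direction. Without the 5 choroid plexus rich libraries and KO 8 there were 26 of 111 (23.4%), all higher in KO. The shares of all tested genes were 4.14% higher in KO and 8.05% in either direction. Without the 5 alone there were 10 of 111 (9.01%), all higher in KO, against 5.3% of all tested genes higher in KO and 9.14% in either direction. Leaving out single libraries other than KO 8 gave at most 9 members, all higher in KO. These were 9 without WT 17 (8.11%, against 5.51% of all tested genes higher in KO and 7.6% in either direction), 8 without KO 6 (7.14%, against 4.11% and 7.13%), 8 without KO 22 (7.14%, against 5.22% and 11.3%) and 5 without WT 15 (4.5%, against 4.73% and 8.07%). Read against genes changed in either direction, the member shares in these 4 fits and without the 5 libraries alone were near or below the background. Read against genes higher in KO only, the direction of all these members, the shares were above it except without WT 15. With voom, and without the 5 libraries and KO 8, the member shares were above both backgrounds. In each of these fits 0 members were called. Members share libraries and move together, so these counts are not independent, and none of these fits took transcript length into account.

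Several subunits exist in forms used by particular tissues, and the hippocampus used almost only the widespread ones. Per length, Cox4i1 made up 99.8% of Cox4 transcripts in WT, Cox6a1 99.3% of Cox6a, Cox6b1 97.6% of Cox6b, Cox7a2 98.8% of the pair Cox7a1 and Cox7a2, Cox8a 99.2% of Cox8 and Ndufa4 99.7% of the pair with Ndufa4l2. The c-ring of complex V, made from 3 genes that encode the same mature protein, came from Atp5g3 (77.2% ± 2.55), Atp5g2 (15.2% ± 2.42) and Atp5g1 (7.6% ± 0.576; SD, n = 12 each), and in KO from 78.1% ± 2.51, 14.4% ± 1.84 and 7.42% ± 0.843 (SD, n = 11 each). The WT and KO shares differed by less than the SD. The order of Atp5g1 and Atp5g2 depends on the length used, since the principal transcript of Atp5g1 has 4715 bases against 731 for Atp5g2, and in CPM Atp5g1 was the higher of them, at 114 ± 13.4 against 35.3 ± 4.73 in WT (SD, n = 12 each). With the length of merged exons the WT shares were 64.7% for Atp5g3, 16.8% for Atp5g2 and 18.5% for Atp5g1, so only the place of Atp5g3 held under both lengths. Counts of Atp5g2 are uncertain, since Gm10175 holds 46.22% of their sum.

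Some forms known from heart, skeletal muscle or testis were highest in libraries with choroid plexus RNA. Cox8b, the muscle form of a small complex IV subunit, had 12.4 CPM in WT 17, 14.2 CPM in KO 12, 5.57 CPM in KO 6, 1.39 CPM in WT 14 and 0.733 CPM in KO 2. In the other 18 libraries it had 0 to 0.525 CPM. Cox6b2, the testis form of Cox6b1, had 14 CPM in WT 17, 11.6 CPM in KO 12 and 5.81 CPM in KO 6, against 0.985 to 3.25 CPM in the other 20 libraries, KO 2 and WT 14 included. Cox7a1 had 2.91 CPM in KO 12 and 2.11 CPM in WT 17, against 0.392 to 1.28 CPM elsewhere. Cox6a2, the heart and muscle form of Cox6a1, did not follow this order and was highest in KO 16 (3.19 CPM), which is not one of these 5, and in WT 14 (2.98 CPM). Cox8a, the widespread form, lay within the range of the other libraries in these 5. Of the list's 12 choroid plexus markers, Ttr had 2881 to 18429 CPM in the 5 libraries and up to 55.3 CPM in the others. The part of choroid plexus RNA in these values was not tested.

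**Figure D5:**
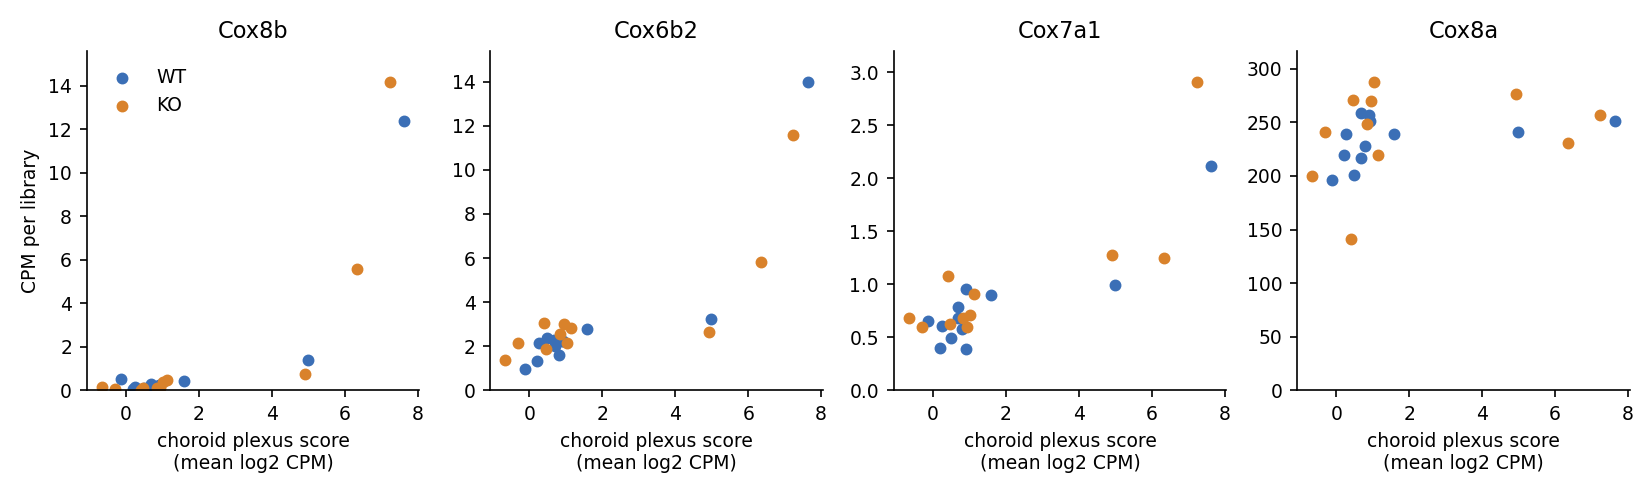
CPM per library (vertical axes, from 0) of Cox8b, Cox6b2, Cox7a1 and Cox8a against the choroid plexus score (horizontal axis, mean log2 CPM of choroid plexus markers), WT in blue and KO in orange. Cox8b, Cox6b2 and Cox7a1 are highest in the 2 libraries with the highest scores, WT 17 and KO 12, and Cox8a shows no such rise.

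These forms gave the largest fold changes and the widest intervals. Cox7a1 had a log2 fold change of 0.36 (SE 0.296, 95% interval -0.25 to 0.98) and Cox4i2, a form tied to low oxygen, 0.25 (SE 0.229, -0.23 to 0.73), which with Cox16 were the 3 highest values. Single libraries set both: Cox7a1 was at 0.07 without KO 12 and 0.60 without WT 17, and Cox4i2 at 0.10 without KO 2. Cox4i2 passed the filter on low counts in only 18 of the 23 fits that each left out 1 library. Cox4i2 had 0.317 to 0.988 CPM in WT and 0.356 to 1.47 CPM in KO. Cox6b2 had the widest interval of all members, from -0.65 to 1.04, and changed sign with 1 library, at -0.18 without KO 12 and 0.75 without WT 17. Cox6a2 (0.05, SE 0.218) and Ndufa4l2 (0.21, SE 0.178) were also below 4 CPM in every library, and leaving out 1 library took them to between -0.12 (without KO 16) and 0.19 (without WT 14), and between 0.12 (without KO 2) and 0.27 (without WT 1). Cox8c had 1 count in all libraries together, in KO 8, and Cox7b2 at most 0.435 CPM. A gene with 0 counts in a library can have up to 3 counts, or 0.131 to 0.218 CPM, so Cox8c and, in most libraries, Cox7b2 were at or near the limit of detection. That limit covers counting error only.

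The rest of the pathway, listed apart from the symbol rule, showed no call either. Of 10 other respiratory subunits and electron carriers, such as Cyc1 and Cycs, 0 were called and 7 were above 0 (median log2 fold change 0.038). Of 33 tested assembly factors outside the rule 22 were above 0 (median 0.023), and 2 had an unadjusted p below 0.05, against 3.41% of all tested genes higher in KO and 5.74% in either direction. They were Coa4 (0.30, edgeR p = 0.0363), which was at 0.20 without KO library 8 (p = 0.0964), and Bcs1l (0.13, p = 0.0399), whose p was 0.05 or above in 9 of 23 fits that each left out 1 library. Of 21 genes of mitochondrial transcription, genome maintenance and messenger stability, such as Tfam, 9 were above 0 (median -0.021). Enzymes of the tricarboxylic acid cycle had 12 of 14 above 0 (median 0.019), ubiquinone synthesis 7 of 11 (0.054), and mitochondrial carriers 7 of 9 (0.026).

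Regulators of mitochondrial biogenesis were mixed, with 4 of 10 above 0, 0 called and a median of -0.03. Ppargc1a, the coactivator known as PGC-1alpha, had means of 43.7 ± 3.45 CPM (WT, SD, n = 12) and 47.5 ± 5.16 CPM (KO, SD, n = 11), a log2 fold change of 0.12 (SE 0.0566, edgeR p = 0.0421, adjusted p = 0.781), and 0.15 without KO library 8 (p = 0.00681). Gabpa, which encodes the DNA-binding part of the ETS factor GABP, had means of 35.2 ± 4.57 CPM (WT) and 31.8 ± 3.09 CPM (KO), a log2 fold change of -0.15 (SE 0.069, p = 0.0444, adjusted p = 0.781), and -0.12 without KO library 8 (p = 0.0945). Leaving out 1 library at a time, the p-value was 0.05 or above in 11 of 23 fits for Ppargc1a and in 13 of 23 for Gabpa. Gabpa overlaps the member Atp5j on the opposite strand over 12.68% of the exonic bases of Atp5j, which itself was at 0.07 (SE 0.0617).

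Among the cell type markers, 9 of 9 dentate gyrus genes had lower fitted values in KO, with 3 at an unadjusted p below 0.05, against 2.34% of all tested genes lower in KO, and a median log2 fold change of -0.32, or -0.22 without KO library 8. The count of 3 includes KO library 8, where these markers summed to 154 CPM against 394 to 811 CPM elsewhere. That number without KO library 8 is not given here. Of the 12 choroid plexus genes 8 were tested, and 8 of 8 had higher fitted values in KO, with 0 at an unadjusted p below 0.05 and a median of 0.27, or 0.40 without KO library 8. Markers of CA1 and CA3 pyramidal cells had 6 of 8 lower, with a median of -0.051, or 0.027 without KO library 8. Neuronal, astrocyte, oligodendrocyte, microglial and endothelial markers had medians of -0.033, -0.023, -0.03, -0.029 and 0.00. The part of tissue composition in the members' fold changes was not tested.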

How the data were processed

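RNA from the hippocampus of 12 WT and 11 KO samples was sequenced after stranded mRNA library preparation, per the labels' protocols. The submitters' processing notes name bcl2fastq, STAR and mm10 without versions, and the counting program and its use of strand are not given in the sources used here. The deposited table holds estimated counts per Ensembl gene, and between 24.6% and 27.2% of each library's values above 0 were not whole (further than 0.001 from a whole number). Symbols were found for 45143 of 45706 identifiers, and 0 columns were left without a sample. Within each genotype every pair of libraries differed beyond counting noise (chi-square per degree of freedom at least 7.34).

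Counts were rounded and fitted in edgeR 4.0.16 (R 4.3.3; filterByExpr, TMM, robust quasi-likelihood F test) over all 15828 genes that passed, which held 99.84% of counts, with Benjamini-Hochberg adjustment over them and a threshold of 0.05. The biological coefficient of variation was 22.9%. CPM uses TMM-scaled totals, and library deviations use log2(CPM + 0.5). 95% intervals were computed from the fold change and its SE with 21 degrees of freedom. Positions and transcript lengths are from GENCODE M21, promoters from RefSeq (GRCm38.p6). Copies were sought with blastn 2.17.0 (at least 95% identity over at least 50% of the shorter transcript), and 37 members had one with counts, 12 of them with over 10% of the summed counts. On simulated data for this comparison over 15828 genes, 42% of genes changed by 0.26 on the log2 scale were recovered, 82% at 0.58 and 94% at 1. The changed genes were drawn above a low CPM cut, and all sizes were simulated together. Counts were drawn gene by gene, without effects that genes of a library share, so these shares can be higher than in the real data.

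Members, lists, tests and alternatives were chosen with earlier results of these data known. Named were Cox16, the mitochondrial messages, catalytic or core subunits of each complex, tissue forms, members at an unadjusted p below 0.05, the 3 highest and lowest fold changes, the most and least abundant members per length, and members sharing reads. The values of 1 gene that this rule names are not reported here. Members named because they passed without KO library 8, other assembly factors and genes of the lists at that p were named after their values were seen. Alternatives were RLE factors, scaling without mitochondrial genes, DESeq2 1.42.0, limma 3.58.1 voom with quality weights, no filter, a mean of at least 50 counts, the choroid plexus score or 1 surrogate variable (sva 3.50.0) as covariate, and leaving out libraries. Added later were sums with copies and the length offset (lowess, span 0.3), with and without KO library 8.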

Additional observations from a re-analysis of the deposited data

How the results depend on the processing

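Over 36 alternative fits, 3 of them added after seeing the data, 0 members were called in each, and Cox16 stayed higher in KO and uncalled, at 0.17 (summed with its copy) to 0.32 (without the 5 choroid plexus rich libraries), with an adjusted p of 0.0774 (DESeq2) to 0.963. The count of members at an unadjusted p below 0.05, 3 with all libraries, was 5 with DESeq2, 51 with limma voom and quality weights, 10 without the 5 choroid plexus rich libraries, 26 without these and KO library 8, 1 with the length offset, and 8 with that offset and without KO library 8. Leaving out 1 library at a time gave 1 to 9: 1 without KO 12, KO 13, KO 16, KO 21, WT 11, WT 19, WT 23 or WT 24, 5 without WT 15, 8 without KO 6 or KO 22, 9 without KO 8 or WT 17, and 2 to 4 without any of the others. The share of all tested genes below 0.05 in either direction moved too, from 5.74% with all libraries to 17.5% with voom. It was 8.05% without the 5 choroid plexus rich libraries and KO 8, and 9.14% without the 5 alone. It was 11.3% without KO 22, 7.6% without WT 17, 7.13% without KO 6 and 4.11% without KO 8. The cause of the moves in the member counts was not tested.

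The median log2 fold change of the nuclear subunits, 0.059 with all libraries, ran from 0.022 (length offset) to 0.124 (voom) and from 0.038 to 0.091 without 1 library. That of the assembly factors ran from 0.031 to 0.107. The mitochondrial median, -0.029, ran from -0.063 (length offset) to 0.04 (without the 5 choroid plexus rich libraries and KO 8) and was above 0 in 3 alternatives. The medians of the nuclear members by complex were above 0 in all 36, from 0.005 (complex II, length offset without KO 8) to 0.139 (complex IV, voom).

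No paired analysis was possible because no replicate number occurs in both genotypes. In the simulated data a change of 0.26 on the log2 scale was recovered for 42% of genes, and most members' fold changes were smaller than that. The simulation left out low-count genes among those changed and effects shared within a library. That share can therefore overstate recovery in these data. The tissue forms at low CPM had the widest intervals, and the parts of depth and of single libraries in this were not tested.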

Other observations

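Genes of cytosolic ribosomal proteins, a group of short transcripts, were looked at after seeing the data, and their likeness to the nuclear members was not tested. Of 80 tested, 74 had a log2 fold change above 0, with a median of 0.072, 3 had an unadjusted p below 0.05 in edgeR's test, against 5.74% of all tested genes, and 0 were called. By library, their median log2 deviation was lowest in KO 22 (-0.33) and WT 23 (-0.31), the libraries that were also lowest for the nuclear subunits (-0.22 and -0.28). In KO 8 the ribosomal genes were at 0.06 and the nuclear subunits at -0.15. The mitochondrially encoded messages did not share this order, with 0.13 in WT 23, 0.05 in KO 22 and -0.40 in KO 8.

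Mitochondrial ribosomal RNA held 1.03% ± 0.107 of counts in WT (SD, n = 12) and 1.03% ± 0.192 in KO (SD, n = 11). It ranged from 0.73% in KO 8 to 1.305% in KO 21, the library with the highest share of mitochondrial messages as well (5.12%).

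For Ndufb4, an accessory subunit of complex I, the processed pseudogene Ndufb4c held 69.41% of the summed counts, with 39.0 ± 3.1 CPM in WT (SD, n = 12) against 17 ± 1.92 CPM for Ndufb4 itself. Ndufb4c matches the symbol rule and was left out as a pseudogene.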
